A study of Rattus norvegicus with 6 samples.

Results

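The probes described here are the 293 array oligonucleotides whose target record carries an NR_ or XR_ accession, the 2 RefSeq prefixes for noncoding transcripts, out of 61657 probes other than controls. They were chosen by accession alone. NR_ records are curated noncoding RNAs and XR_ records are noncoding transcripts predicted by the RefSeq annotation pipeline. There were 41 NR probes and 252 XR probes, for 238 accessions. Each probe was read once on each of 6 one-colour arrays, 1 array per animal, hybridised with Cy3-labelled cRNA of total liver RNA from male Sprague-Dawley rats, an outbred stock, bought at 5 weeks of age. The vehicle group was 3 rats given corn oil. The treated group was 3 rats dosed daily with 1000 mg/kg of phenolphthalein, an acid-base indicator that was formerly an over-the-counter laxative. The treatment protocol speaks of 9 weeks of dosing and the design text of 28 days, so the length is not settled. The vehicle arrays shared slide 1 and scan 1, and the treated arrays slide 2 and scan 2, so an effect of the slide or scan and one of the treatment cannot be told apart.

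Noncoding RNA genes make transcripts that act as RNA or have no known product. They include the RNA cores of enzymes such as RNase P and telomerase, and host transcripts whose introns hold small nucleolar RNAs. Imprinted and antisense transcripts also belong here, as do transcribed pseudogenes, which are related to a coding gene and no longer encode its protein. Labelling kits of the kind named in the protocol start cDNA from the poly(A) tail, so an RNA without such a tail is read less well than a messenger RNA, and a probe against a pseudogene can also bind the messenger RNA of its parent gene.

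Only 37 of the 293 probes, all of them NR, matched a gene of the RefSeq table used for names (assembly GRCr8), and they covered 24 genes. None of the 252 XR probes matched, so those are named by accession. Whether their records are still held to be noncoding was not checked, and they are called noncoding here by prefix alone. Among the named members were Rpph1, the RNA subunit of RNase P, which trims transfer RNA precursors, and Terc, the template RNA of telomerase. Gas5 is the host of several box C/D small nucleolar RNAs, and H19 is an imprinted RNA abundant in fetal liver. Abhd11-as1 lies next to Abhd11, and RT1-CE6 and RT1-T24-2 lie in the rat class I MHC region, which encodes proteins that present peptides to T cells. There were 14 pseudogene probes for 7 genes, including copies of Gapdh and Cox6c. No microRNA precursor was among the named members. Of 20 well known noncoding RNAs looked for by symbol among the named members, 4 were found, namely Gas5, H19, Rpph1 and Terc. Probes without a name or with another kind of accession were not searched, so the others may still be on the array.

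RefSeq promoter windows, from 250 bases before to 50 after the start, were held for 11 of the 24 named genes. The windows of Gas5, the named member with the brightest spot, and of RT1-T24-2 and RT1-CE6, a pair of genes in the class I MHC region, are shown as the sequence context of these members. They come from the GRCr8 reference, which is not the genome of the outbred animals, and lie at chr13:75836713-75837012 on the plus strand (Gas5), chr20:2743661-2743960 on the minus strand (RT1-T24-2) and chr20:3466553-3466852 on the minus strand (RT1-CE6). Capitals mark matches to any of 3 motifs searched on both strands.
Gas5: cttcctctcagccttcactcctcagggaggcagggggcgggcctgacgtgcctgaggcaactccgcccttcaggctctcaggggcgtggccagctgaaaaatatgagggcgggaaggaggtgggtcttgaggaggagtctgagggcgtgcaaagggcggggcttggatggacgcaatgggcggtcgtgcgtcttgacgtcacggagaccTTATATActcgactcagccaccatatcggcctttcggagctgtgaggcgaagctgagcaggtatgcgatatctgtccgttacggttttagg
RT1-T24-2: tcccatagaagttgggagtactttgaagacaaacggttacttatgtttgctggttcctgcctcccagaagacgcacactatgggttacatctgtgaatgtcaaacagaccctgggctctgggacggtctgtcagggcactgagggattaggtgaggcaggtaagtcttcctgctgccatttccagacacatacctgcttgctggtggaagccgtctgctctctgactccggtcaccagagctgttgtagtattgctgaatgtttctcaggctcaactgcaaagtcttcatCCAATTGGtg
RT1-CE6: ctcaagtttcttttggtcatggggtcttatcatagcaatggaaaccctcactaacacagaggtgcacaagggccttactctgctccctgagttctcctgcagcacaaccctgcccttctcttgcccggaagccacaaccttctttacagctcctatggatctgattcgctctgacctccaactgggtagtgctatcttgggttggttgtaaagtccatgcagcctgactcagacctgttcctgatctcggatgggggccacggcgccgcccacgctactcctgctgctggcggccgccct

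The first motif searched, TATAA, a form of the element that positions the transcription machinery, stood on either strand in 26.2% of all 33469 promoter windows of that length. A longer form, TATATA, which shares letters with the first, stood in 6.15% of the windows. The third motif, CCAAT, the letters of another common promoter element, stood in 37.5% of them. The Gas5 window held the longer form at positions -40 to -35 from the start, overlapped by the first motif on the other strand. The RT1-T24-2 window held overlapping matches to the third motif on both strands after the start, and the RT1-CE6 window held none of the 3. A match is a description of letters and not a site of binding.

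Detection was read from the scanner's mark for a spot well above background, and a member counted as detected if 3 or more of the 6 arrays gave it that mark, in either group. By this rule 200 of 293 members were detected (68.3%), 188 of them on all 6 arrays. A further 18 had the mark on 1 or 2 arrays and 75 on none. The share detected was 63.4% for NR probes and 69.0% for XR probes. It was 71.0% for the 29123 NM probes, which target curated messenger RNAs, 52.9% for the 3940 XM probes, which target predicted ones, and 63.9% for all probes. The share for all members thus lay near that of NM probes, while NR probes lay below NM probes and XR probes above XM probes. These shares are over probes of different design and are given as a description.

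The number of members marked was 202, 207 and 193 for the 3 vehicle animals, in replicate order, and 201, 197 and 201 for the 3 treated ones. As a share of the 293 members the vehicle mean was 68.5% ± 2.42 and the treated mean 68.2% ± 0.79 (SD, n = 3 each). The groups overlapped, and an exact two-sided permutation test gave p = 0.80, where 3 against 3 arrays cannot go below 0.10. Corn oil replicate 3 had the lowest count and corn oil replicate 2 the highest. The same held for the share over all probes, at 62.1% and 65.1%, so this order was not particular to the members.

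Detection varied little with the age of the predicted record. Of XR probes with the older accession numbers, which begin XR_00, 71 of 105 were detected (67.6%), and of those with the newer numbers, which begin XR_08, 103 of 147 (70.1%). By probe name, 63.3% of members in the A_64 series, 70.7% in the A_44 series and 87.0% of the 23 in the A_42 and A_43 series were detected. The 75 members marked on no array had a median level between -7.45 and -7.10 on every array. Levels here and below are log2 of the processed spot signal relative to the array's 75th percentile, so 0 is the brightness that 75% of probes do not exceed. These lowest readings are the array's floor, and values at it have no order.

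The 15 brightest members had mean levels from 5.24 to 9.24, and 13 of these probes were XR. Brightness depends on the probe as well as the RNA, so it ranks spots and not transcripts. The brightest accession was XR_006055, whose first probe read 9.18, 9.26 and 9.24 in corn oil and 9.21, 9.30 and 9.25 with phenolphthalein. Its other probe read 8.73, 8.58 and 8.64 against 8.71, 8.96 and 8.87. Both probes overlapped between the groups. The brightest NR record, NR_038113, which had no gene name, read 7.46, 7.52 and 7.27 in corn oil and 7.61, 7.41 and 7.51 with phenolphthalein. None of the 15 passed the test described next, and their log2 differences ran from -0.18 to 0.22. XR_086372, XR_085886 and XR_009617 were among them, and XR_085886 was the 1 of the 15 whose groups did not overlap, at 7.90, 7.97 and 7.86 against 8.07, 8.06 and 8.02.

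The comparison of phenolphthalein with corn oil asked which noncoding probes passed limma's adjusted threshold between treated and vehicle livers. A single member did, XR_086356, a predicted noncoding RNA without a gene name in the table used here. Members that did not pass are not thereby shown to be unchanged. It read 3.33, 3.02 and 3.00 in the vehicle animals and 4.95, 4.97 and 4.65 in the treated animals, each in replicate order. All 3 treated animals lay above all 3 vehicle animals, by a gap several times the spread within either group (SD 0.18 in both, n = 3 per group). The probe was 3.33-fold higher with phenolphthalein, which is 1.74 ± 0.14 (SE) in log2 units, and its limma adjusted p was 0.0379 over the 39411 probes tested. For scale, the probes that stood for Cyp2b1, Cyp2b2 and Ugt2b1, enzymes of drug oxidation and glucuronidation, had log2 fold changes of 3.61, 3.49 and 2.69 in the same test, and all 3 passed.

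Of the 200 members tested, 1 was higher (0.5%), 0 were lower and 199 did not pass limma's adjusted threshold of 0.05. Over all probes tested 0.0482% passed, 0.0457% higher and 0.00254% lower. With an unadjusted p under 0.05 in limma there were 17 members higher and 11 lower, 14% of the 200, against 13.2% of all probes (6.84% higher and 6.37% lower). The share of members past the unadjusted threshold was thus near that of the array as a whole. The call of XR_086356 was lost without any 1 array (adjusted p from 0.0972 without corn oil replicate 1 to 0.236 without corn oil replicate 3, with log2 fold changes from 1.68 to 1.84), with quantile normalization (0.0569) and with no filter on dim probes (0.0739).

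Over the set, the median absolute log2 fold change was 0.14, against 0.15 for all probes tested. Their median log2 fold change was 0.05, against 0.02 for all probes tested, and 124 had a higher mean and 76 a lower one (62% higher, against 53.4% of all probes). The absolute log2 fold change was under 0.5 for 175 of the 200 (87.5%, against 90.6% of all probes). Treated arrays lay above all vehicle arrays for 25 members (12.5%, against 11.8% of all probes) and below them for 21 (10.5%, against 9.24%). At least a 2-fold difference was seen for 3 members (1.5%, against 1.89%), namely XR_086356, XR_085603 and XR_085918. With normexp background correction XR_086356 stayed at 1.72 on the log2 scale, while XR_085603 was at -0.33 and XR_085918 at -0.21. The size for these dim probes thus depends on the processing. Normexp was run with an offset of 50 added to every signal, which by itself shrinks log2 differences of dim probes. The parts of the offset and of the background estimate were not told apart, here or in the normexp values given below. The median spread within groups was an SD of 0.16 log2 units for members and 0.17 for all probes tested.

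Among the named RNAs with a catalytic or template role, Rpph1 and Terc did not differ beyond the spread between animals. Rpph1 read 3.22, 3.05 and 3.28 in corn oil and 3.19, 3.33 and 3.22 with phenolphthalein. Its log2 difference was 0.07, with a 95% interval from -0.18 to 0.31 (limma adjusted p = 0.80). The groups overlapped throughout. Parp2, a DNA repair enzyme gene next to Rpph1, had log2 differences of 0.05 and 0.23 on its probes, and Tep1, a telomerase-associated protein gene on the other side, -0.33 and -0.39, and none of these passed.

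Terc read -0.80, -0.60 and -0.73 in corn oil and -0.33, -0.91 and -0.79 with phenolphthalein, where replicate 1 stood highest. Its log2 difference was 0.03, with an interval from -0.38 to 0.44 (limma adjusted p = 0.95), and its sign turned without corn oil replicate 1 (-0.01) or phenolphthalein replicate 1 (-0.14). The sign for Rpph1 turned without corn oil replicate 2 (-0.004). Neither interval reaches a 2-fold difference in either direction. Both are intervals of spot readings, and how well labelling from the poly(A) tail reads Rpph1 and Terc was not tested.

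Gas5, the small nucleolar RNA host, was bright, with little spread. It read 5.33, 5.04 and 5.21 in corn oil and 5.45, 5.21 and 5.21 with phenolphthalein, with overlapping groups. The log2 difference was 0.10 (interval -0.19 to 0.39, limma adjusted p = 0.75). Zbtb37, a coding gene next to it on the chromosome, had log2 differences of -0.41 and -0.48 on its probes, and neither passed.

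H19 was dim and varied widely between animals. It read -1.76, -3.08 and -3.37 in corn oil and -2.38, -4.17 and -3.15 with phenolphthalein, well above background on all 6 arrays. Corn oil replicate 1 and phenolphthalein replicate 2 were the extremes, and the groups overlapped. The log2 difference was -0.50 ± 0.59 (SE), with an interval from -1.95 to 0.95 that takes in 2-fold differences either way, and it was -0.01 without corn oil replicate 1. Leaving out phenolphthalein replicate 2 gave -0.03, corn oil replicate 3 -0.815 and phenolphthalein replicate 1 -0.925. Igf2, the imprinted growth factor gene beside H19, had a log2 difference of 0.11 and read -0.98 on corn oil replicate 1 against -1.72 and -1.61 on the other vehicle arrays.

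RT1-CE6 and RT1-T24-2 had the 2 lowest log2 fold changes of the 26 NR probes tested, and neither passed. RT1-T24-2 read -4.44, -4.25 and -4.49 in corn oil and -5.23, -5.14 and -5.23 with phenolphthalein, so the groups did not overlap. It was the 1 member well above background on 3 of 3 arrays of one group and on 0 of 3 of the other, and its measured means differed 1.75-fold. This probe entered the test through its vehicle arrays alone, and the share of all probes with this pattern was not counted. The dim readings were not well above background, so this fold is uncertain on the dim side. Its limma adjusted p was 0.116, with a log2 fold change of -0.81 ± 0.095 (SE), which was -0.15 with normexp background correction. The other RT1-T24-2 probe had no array above background (0 of 6).

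RT1-CE6 split the treated animals. It read -2.67, -2.75 and -2.65 in corn oil and -4.06, -4.27 and -2.53 with phenolphthalein, so treated replicates 1 and 2 were low and replicate 3 lay above every vehicle array. The log2 difference was -0.93 ± 0.46 (SE, limma adjusted p = 0.44), and it was -1.48 without phenolphthalein replicate 3, -0.61 without phenolphthalein replicate 2 and -0.39 with normexp. Its coding neighbours RT1-CE7 and RT1-CE3 are of the same gene family, so probes may share targets. The RT1-CE7 probes had log2 differences of -0.33 and -0.51, and the RT1-CE3 probes of 0.09 and -1.13, of which the last read 2.48, 1.55 and 3.42 in corn oil and 1.32, 1.23 and 1.5 with phenolphthalein. None of them passed.

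Immune cell markers had lower treated means on the same arrays. All 7 Kupffer cell and macrophage markers had a lower mean with phenolphthalein (median log2 fold change -0.63, 0 past the adjusted threshold in limma), and their summed linear level was 174 to 246 in corn oil and 128 to 167 with phenolphthalein, in units of the array's 75th percentile. The 4 lymphocyte markers tested were also lower (median -0.40, 0 past the threshold), with sums over all 5 probed genes of 2.66 to 3.07 against 1.91 to 2.16. Of the 4 tested, Ptprc was the brightest and had the largest fall (-0.59), while Cd79b overlapped between groups (-0.28). Ptprc is a gene of leukocytes in general, so its fall and the sums that include it are not particular to lymphocytes. Cd3e, which was not tested, read -5.23, -4.80 and -4.74 in corn oil and -6.22, -6.09 and -5.97 with phenolphthalein. No marker of either list was at background on all arrays. The 4 stellate and endothelial markers also had lower means (median -0.17, 0 past the threshold), so lower means were not particular to immune cells. Among them Col1a1 was at -0.48 and Col3a1 at -0.26, while Pecam1 and Lyve1 were both at -0.08. Of the 3 bile duct markers, 2 had a higher mean and 1 a lower one (median 0.29, 0 past the threshold). In whole liver, fewer immune cells and less RNA per cell cannot be told apart, and the part of these cells in the RT1 readings was not tested. Igh-6l1, named for an immunoglobulin heavy chain gene, read -1.45, -1.10 and -0.88 in corn oil and -1.02, -1.39 and -0.86 with phenolphthalein (log2 difference 0.05, interval -0.44 to 0.54). Hepatocyte markers, which fit the labelled tissue, were well above background on all arrays for 7 of 7 genes, with a median log2 fold change of 0.03.

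AA926063, a long noncoding RNA gene next to Daxx in the table, gave the same profile on both of its probes. The first read 0.76, -0.31 and -1.18 in corn oil and -1.29, -0.77 and -0.79 with phenolphthalein. The second read -0.79, -1.77 and -2.62 against -2.77, -2.30 and -2.18. Corn oil replicate 1 was the highest array on both, and both varied widely among vehicle animals. The log2 differences were -0.71 ± 0.48 and -0.69 ± 0.46 (SE), neither passed, and the second was -0.22 without corn oil replicate 1, -1.14 without corn oil replicate 3 and -0.45 with normexp. Daxx itself had log2 differences of -0.23 and -0.24.

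Abhd11-as1 had the highest log2 fold change of the named RNAs, and its groups overlapped. It read -4.91, -4.37 and -4.57 in corn oil and -3.29, -3.17 and -4.51 with phenolphthalein, so treated replicates 1 and 2 were high and replicate 3 lay among the vehicle arrays. The log2 fold change was 0.97 ± 0.38 (SE, limma adjusted p = 0.37), and 0.43 with normexp. RGD1562890, another long noncoding RNA gene, had probes at 0.05 ± 0.31 and -0.24 ± 0.22 (SE) and gave no settled direction.

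Pseudogene probes were detected for 9 of 14, and none passed. Cox6c-ps1, a copy of the gene for a cytochrome c oxidase subunit, read 1.05, 1.1 and 1.07 in corn oil and 1.59, 1.5 and 1.66 with phenolphthalein. The groups did not overlap and the spread was small, the log2 fold change was 0.51 ± 0.08 (SE), and limma's adjusted p was 0.166. The 2 probes of the parent gene Cox6c had log2 differences of 0.08 and 0.10 and overlapped between groups, and the other Cox6c-ps1 probe had the detection mark on 2 arrays of 6.

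The 4 probes of Gapdh-ps1, a copy of a glycolytic enzyme gene, gave log2 differences of -0.09, -0.08, 0.03 and 0.21, against -0.04 to 0.06 for the 5 probes of Gapdh. The probe at 0.21 read 0.83, 0.86 and 0.77 in corn oil and 1.16, 1.03 and 0.91 with phenolphthalein, which did not overlap (limma adjusted p = 0.40). Aoc2-ps1, an amine oxidase pseudogene, disagreed between its probes. One read -3.70, -3.96 and -4.14 against -4.29, -4.79 and -4.51 (log2 fold change -0.59 ± 0.17, limma adjusted p = 0.28, and -0.13 with normexp), and the other read -4.38, -4.55 and -4.38 against -4.35, -4.55 and -4.35 (0.02 ± 0.10, SE). Tnxa-ps1, a tenascin gene copy between Cyp21a1 and Atf6b, also in the MHC region, had log2 differences of -0.09 and 0.12 on its probes, with overlapping groups. Hmgb1-ps2, a copy of a chromatin protein gene, was not tested, being well above background on 2 of 6 arrays.

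Of the predicted RNAs that did not pass, XR_085725 had a pair of probes with like values, both higher in mean with phenolphthalein. Its probes read -1.33, -0.76 and -0.74 in corn oil against -0.07, -0.10 and -0.03, and -1.13, -0.68 and -0.57 against 0.00, -0.16 and -0.01. Both sets of treated arrays lay above every vehicle array and were tighter than them. The log2 fold changes were 0.88 ± 0.17 and 0.74 ± 0.16 (SE), with limma adjusted p of 0.203 and 0.216. XR_008610 also had 2 probes without overlap, both lower in mean, at -0.44 ± 0.11 and -0.40 ± 0.17 (SE) and adjusted p of 0.239 and 0.384. The former read -2.28, -2.49 and -2.61 against -2.91, -2.97 and -2.83.

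Treated arrays lay above all vehicle arrays for 23 of the 174 XR probes tested. The share was 12.5% for all members tested and 11.8% for all probes, so the count is near that of the array. Beside those already given, the ones taken by the rule for named probes were XR_085779 (log2 difference 0.92), XR_085769 (0.63), XR_006808 (0.54), XR_085878 (0.43), XR_006399 (0.38), XR_085827 (0.32) and XR_009610 (0.28). The rest ran from 0.12 (XR_085582) to 0.32 (XR_005569). With normexp XR_085779 was at 0.52, XR_085769 at 0.23, XR_006808 at 0.36 and XR_009610 at 0.14. XR_006808 had tight groups, at -3.29, -3.17 and -3.18 against -2.63, -2.67 and -2.71, and a limma adjusted p of 0.152. XR_085779 had a second probe with a log2 difference of -0.01, so its probes disagreed. The 2 probes of XR_085827 were both higher in mean, by 0.32 and 0.21.

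Treated arrays lay below all vehicle arrays for 19 of the 174 XR probes tested. The share was 10.5% for all members tested and 9.24% for all probes. Beside XR_008610, which was at -0.23 on its dimmer probe with normexp, the ones taken by the rule were XR_085918 (-1.10), XR_085603 (-1.01), XR_006986 (-0.91), XR_085956 (-0.76), XR_005447 (-0.59), XR_085643 (-0.55) and XR_085773 (-0.52). The rest ran from -0.44 (XR_005677) to -0.125 (XR_006574). With normexp XR_006986 was at -0.16, XR_085956 at -0.20, XR_005447 at -0.34 and XR_085643 at -0.14. The value of XR_085956 rests on phenolphthalein replicate 3, where it read -5.41 in a line of dim spots, and was -0.285 without that array or with the line masked. XR_005447 was at -0.30 without phenolphthalein replicate 2. XR_085643 read -3.89, -3.99 and -3.77 against -4.44, -4.42 and -4.46, with a limma adjusted p of 0.166. XR_085603 was dim and uneven in the vehicle group, at -3.79, -4.48 and -3.12 against -4.90, -4.91 and -4.63. XR_085918 and XR_006986 were each well above background on 3 vehicle arrays and 1 treated array. The lower values of both therefore rest in part on readings near background.

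Of the 238 accessions, 49 had over 1 probe and 28 had over 1 probe in the test. Within these 28, probes of 1 accession differed in brightness by a median of 1.52 log2 units and by up to 4.88. Their log2 fold changes differed by a median of 0.17. The fold changes lay over 0.5 apart for 3 accessions, XR_085779, Aoc2-ps1 and C7h12orf54. For 10 accessions some probes were in the test and others were not.

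A few members were bright on 1 animal's array alone. A probe of XR_008965 read -1.86 on corn oil replicate 2 and between -7.36 and -6.94 on the other arrays, a gap of 5.38 log2 units to their median. Another probe of the same accession read between -3.97 and -3.55 on all 6 arrays and did not follow it. A probe of XR_085918 read -2.35 on corn oil replicate 2 and between -6.77 and -5.85 elsewhere, while the tested probe of that accession read -4.08 on that array. These probes were well above background on 1 of 6 arrays, as were 11 members in all, and were picked out after their values were seen. Among tested members XR_085705 read -2.17 on phenolphthalein replicate 3 and between -4.43 and -3.84 on the others.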

How the data were processed

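Total liver RNA of 6 rats was read on Agilent 1-colour arrays. The deposited scanner files give spot intensity produced by Feature Extraction (10.7 in the submitters' processing notes, 10.7.1.1 per the file headers), background-subtracted, detrended and without normalization across arrays. The value table of the authors holds those intensities over 1 scale factor for each array, within 0.005% of constant for values above 1. Its column medians were 0.0941 to 0.102, and it is linear, not centred, and runs the same way.

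The 75th percentile of the signal was 551 to 636 per array, 62.1% to 65.1% of spots were well above background, 0 were saturated and 4 to 14 were outlier-marked and set missing (0 of them members). Log2 signal minus each array's 75th percentile was tested by probe in limma 3.58.1 (R 4.3.3; lmFit, eBayes, Benjamini-Hochberg) over the 39411 probes that passed detection on 3 or more of 6 arrays. The permutation test used scipy 1.17.1. On simulated data of 39376 probes with 200 changed, 46.4% of 2-fold and 81.8% of 4-fold changes were recovered. The number of arrays limits the precision, and p-values measure the spread between these 6 animals.

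Named members were those past the threshold, the 10 highest and 10 lowest log2 fold changes without overlap, those on in 1 group, the 15 brightest, the 3 smallest p of each class and 20 symbols. Other named probes were chosen after their values were seen. Members and lists were chosen with earlier results of these data known. No probe sequence was used here. Normexp ran on the median spot signal, with an offset of 50. Same-numbered animals of the 2 groups did not deviate together (r from -0.01 to 0.02).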

Additional observations from a re-analysis of the deposited data

How the results depend on the processing

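Over 17 alternative settings, the count of members called, 1 in the main test, was 1 in 8 and 0 in 9: with quantile normalization, with no filter on dim probes, with the replicate number as a block, and in each of the 6 fits that left out 1 array (0 to 0). XR_086356 kept its direction in all 17. The block gave XR_086356 an adjusted p of 0.33 in limma, the largest over the settings (0.00737 to 0.33), and called 0 probes of any kind, against 19 in the main test, with 23 members at an unadjusted p under 0.05 in limma; 28 had one in the main test. Over all probes, 0 to 5 were called without 1 array and 0 with no filter. The median log2 fold change of members was 0.1286 with a median shift, which moved the median of all probes by 0.08, and 0.0201 with no filter, and ran from 0.0323 to 0.0593 without 1 array. The number of members detected ran from 188 to 218 under the other detection rules. Of 550 values for 33 probes, 6 changed sign, none of a called probe, each without 1 array: Terc -0.011 and -0.14 (range -0.14 to 0.15), Rpph1 -0.004 (to 0.115), and RGD1562890 -0.248 and -0.01 (to 0.379) and, on its other probe, 0.012 (from -0.362). Masking lines of dim spots, chosen after seeing the data, kept the call. The cause of the lost calls was not tested.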
